A study of Gallus gallus with 6 samples.

Results

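Keratins are the proteins of the intermediate filaments of epithelial cells. The 23 probe sets of 15 keratin genes described here are those among the 38535 on an Affymetrix chicken array whose only gene symbol in the platform's annotation starts with KRT and a digit, taken without a filter on signal. The array reads a transcript as the brightness (signal intensity) of a set of short probes. Ovarian tissue came from 6 hens (Gallus gallus), 1 array per hen. In 3 hens, called 4, LB14 and LB11, the ovary carried a tumour, which was either confined to it or had seeded the abdomen. In the other 3, called 36, LB3 and LB22, no cancer was seen by eye or under the microscope. Age and laying status were matched between the groups, per the design text, which names no strain, treatment or age. RNA came from whole ovarian tissue, so fewer cells of a type and less RNA per cell cannot be told apart. The question is which keratin transcripts differed between the tumour-bearing and the normal ovaries.

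A keratin filament is built from pairs of an acidic type I keratin and a basic type II keratin, so an epithelial cell makes at least one of each. Simple epithelia, such as those that line ducts and glands, mostly use KRT8 with KRT18, often with KRT7 and KRT19, whereas the basal layer of stratified epithelia uses KRT5 with KRT14. In human pathology the set of keratins in a carcinoma is used to describe what kind of epithelium it resembles. The 15 genes hold 7 type I keratins (KRT222, KRT40, KRT23, KRT13, KRT24, KRT9 and KRT14) and 8 type II keratins (KRT71, KRT75L2, KRT3, KRT5, KRT6A, KRT75, KRT7 and KRT80). No probe set carries the symbol KRT8, KRT18 or KRT19 alone, so the main simple-epithelium pair was not analysed here. The RefSeq gene table (assembly GRCg7b) lists KRT19 and keratin-19 as older names of chicken KRT24, KRT20 as an older name of KRT40, and KRT15 as an older name of KRT13. Roles known from mammalian genes of the same symbol are given below as background only.

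Of the 23 keratin probe sets, 1 rose in cancer and 0 fell (limma, Benjamini-Hochberg adjusted p under 0.05 over 38439 probe sets). Over all probe sets 0.0989% were higher and 0.0156% were lower by that test. KRT40 was the keratin that rose. The median log2 difference, cancer minus normal on the log2(signal + 16) scale, was 0.55 over the 23 keratin probe sets and 0.02 over all probe sets. At an unadjusted p under 0.05, limma gave 10 keratin probe sets of 8 genes as higher and 0 as lower, where the shares of all probe sets were 4.41% and 3.90%. All 3 tumours lay above all 3 normal ovaries on 5 keratin probe sets, each of a different gene (KRT40, KRT23, KRT222, KRT6A and KRT75L2), against 6.88% of all probe sets; on KRT6A the lowest tumour and the normal ovaries were all below background. All 3 tumours lay below all normal ovaries on 1, of KRT9, whose 6 signals were all at or below background; the share of all probe sets was 6.40%.

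**Figure D1:**
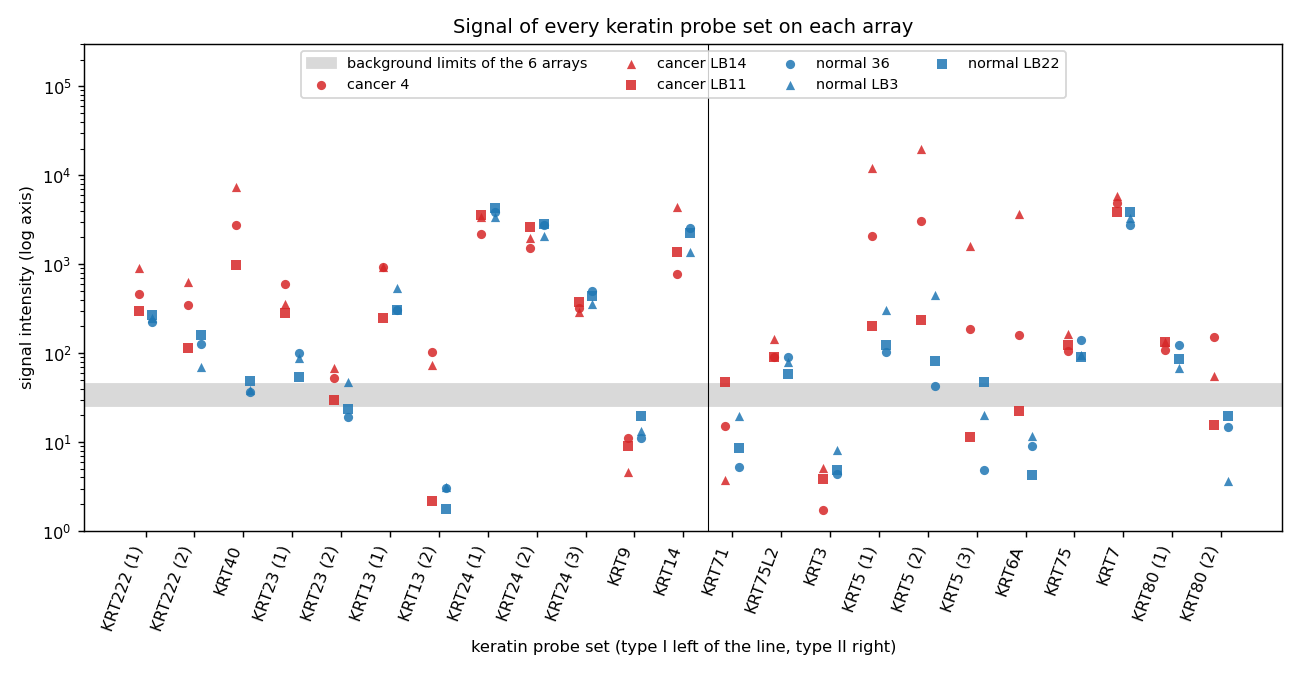
Signal intensity (log axis) of each of the 23 keratin probe sets on each of the 6 arrays, type I keratins on the left and type II on the right, tumours in red and normal ovaries in blue; the grey band spans the background limits of the 6 arrays, 25.5 to 44.6. KRT40 separates the groups, KRT5 and KRT6A are spread widely among the tumours, and KRT7 and KRT24 are bright in every ovary.

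The arrays had been scaled by the authors, and their 75th percentiles lay between 514 and 540. The background limit of an array, taken as the 95th percentile of its 59 controls against transcripts absent from the sample, was 25.5 to 44.6. The ratio of the 3' to the 5' probe set of actin, a sign of RNA quality, was 1.08 to 1.17 in tumours and 0.918 to 1.16 in normal ovaries. Of 9 measured epithelial markers, 9 had positive differences (52.1% of all probe sets) and 3 rose (CDH1, CLDN3 and CLDN10; 0.0989% of all probe sets). The summed signal of the 9 was 22975 to 59502 in tumours and 14618 to 16706 in normal ovaries. Most of the normal sum came from EPCAM, which overlapped between the groups (14221 to 25916 in tumours, 12487 to 14301 in normal ovaries). None of the 9 was at or below background on all 6 arrays. Of 11 markers of granulosa and theca cells, the hormone-making cells of the follicle, 11 had negative differences and 1 fell (ZP3). At an unadjusted limma p under 0.05, 10 were lower, where the share of all probe sets was 3.90%. All 3 tumours lay below all normal ovaries on 10 (6.40% of all probe sets). The summed signal of the 11 was 12939 to 27910 in tumours and 39725 to 59206 in normal ovaries. On its brightest probe set AMH was lower in every tumour (5317 to 9929) than in any normal ovary (14502 to 16132), but still bright. That probe set has the suffix _s_at, so its probes can also match related transcripts. The highest difference among the 4 AMH probe sets was 0.66, so they did not all go the same way, and none passed the test. FOXL2 was 4913 to 11080 in tumours and 10929 to 11766 in normal ovaries. Some markers of the label ovary were thus present in both groups. STAR was 76.6 to 550 in tumours and 1739 to 3447 in normal ovaries. Of 6 measured markers of oviduct gland, each on its brightest probe set, 6 had positive differences (52.1% of all probe sets). By limma 5 of them rose (OVAL, OVALY, SPINK7, LYZ and TF; 0.0989% of all probe sets), and AVD overlapped between the groups. The summed signal of the 6 was 53848 to 99443 in tumours and 634 to 1961 in normal ovaries. The part of these shifts in the keratin results was not tested.

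Among type I keratins, KRT40 stood out. Its only probe set had a signal of 7344 in tumour LB14, 2736 in tumour 4 and 976 in tumour LB11. In the normal ovaries it was 36.8 in hen 36, 38.9 in hen LB3 and 49.0 in hen LB22. The lowest tumour was thus far above the highest normal ovary, and the normal signals lay within 10 units of their arrays' background limits (42.0, 38.6 and 39.3), with hen 36 below its limit. The log2 difference was 5.57 (SE 0.59, 95% interval 4.23 to 6.91, n = 3 per group, limma adjusted p = 0.0102). Tumours differed from each other by 7.53-fold between LB14 and LB11. In mammals KRT40 is a type I keratin of hair, and human KRT20, whose symbol the chicken gene also carries, marks the lining of gut and bladder. The call was lost without tumour 4 (5.56, adjusted p = 0.0648), without normal hen 36 (5.51, 0.0659), LB3 (5.54, 0.0864) or LB22 (5.66, 0.0736), and within the LB hens alone (5.50, 0.317), although the difference itself moved little.

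KRT23 and KRT222 had positive differences that did not pass the test. KRT23, a type I keratin described in human epithelia, had signals of 595 in tumour 4, 354 in LB14 and 286 in LB11 on its first probe set, against 99.9, 88.9 and 54.0 in hens 36, LB3 and LB22. The groups did not overlap, and the log2 difference was 2.11 (SE 0.35, limma adjusted p = 0.0935). Of 17 alternatives, robust eBayes fitting put it past the threshold (adjusted p = 0.0487) and the other 16 did not (0.0507 to 0.524). Its second probe set was dim, with 18.99 to 67.3 over all 6 ovaries, and differed by 0.52 (SE 0.38). KRT222, a short type I-like protein, had a signal of 915 in LB14, 460 in tumour 4 and 299 in LB11 on its first probe set, against 223 to 270 in normal ovaries. It differed by 0.98 (SE 0.37, adjusted p = 0.505) there, and by 1.28 (SE 0.55, adjusted p = 0.586) on its second, where tumour LB11 lay among the normal ovaries.

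KRT13, a keratin of the upper layers of stratified mucosa in humans, had signals of 922 in tumour 4, 926 in LB14 and 250 in LB11 on its first probe set. Normal ovaries gave 302, 304 and 539, so LB11 lay below every normal ovary. The log2 difference was 0.68 (SE 0.48, adjusted p = 0.794). Its second probe set, of the kind whose probes can also match related transcripts (suffix _s_at), was at 104 in tumour 4 and 73.4 in LB14, and between 1.75 and 3.14 in LB11 and the normal ovaries, below the background limits. Because the normal signals were all below background, the size of its difference was set by the pseudocount (0.79 with 64 and 3.02 with 1) and no fold is given. It did not pass the test (limma adjusted p = 0.514). It was past the threshold without tumour LB11 (0.0263), which has the low signal among tumours, and not without any other hen (0.567 to 0.933).

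KRT24, the gene that RefSeq also lists as KRT19, was bright in every ovary. On its brightest probe set the signal was 2198 in tumour 4, 3361 in LB14 and 3607 in LB11, against 3356 to 4265 in normal ovaries, and the groups overlapped. Its 3 probe sets differed by −0.35, −0.35 and −0.39 (SE 0.22 to 0.23, adjusted p 0.721 to 0.768), and the 95% interval of the brightest ran from −0.84 to 0.14. KRT14, the basal-layer partner of KRT5, was 4428 in LB14, 1378 in LB11 and 783 in tumour 4, a spread that enclosed the normal ovaries at 1374, 2275 and 2527. Its log2 difference was −0.24 (SE 0.54, adjusted p = 0.953), and it was above 0 without tumour 4 (0.31) and among the LB hens alone (0.48). KRT9, a keratin of palm and sole skin in humans, was at or below background on all 6 arrays (4.66 to 19.7).

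**Figure D2:**
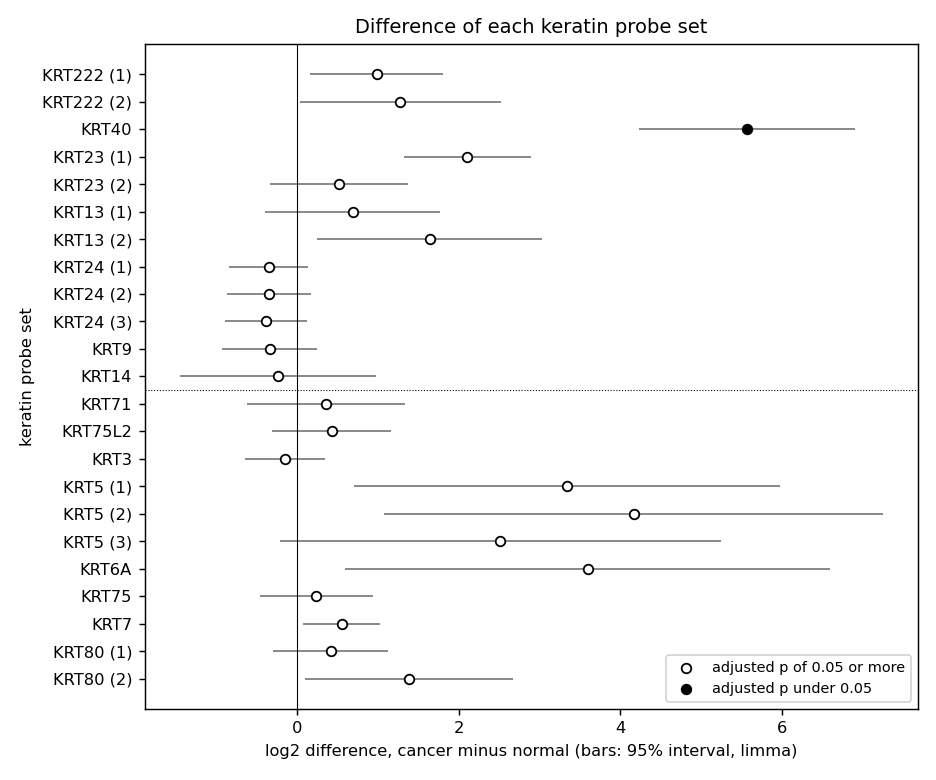
Log2 difference (cancer minus normal, log2(signal + 16) scale) of each keratin probe set with its 95% interval from limma, n = 3 hens per group, in the order of the genes in RefSeq; the dotted line parts type I (above) from type II (below). KRT40 at 5.57 is the filled point, past the threshold; KRT5 and KRT6A have large differences with wide intervals.

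Among type II keratins no probe set passed the test (0 of 11 by limma in either direction). At an unadjusted limma p under 0.05, 5 of 11, of 4 genes, were higher and 0 lower. The shares of all probe sets were 4.41% and 3.90%. KRT5 is the type II keratin of basal cells, and its brightest probe set had the largest difference of the 11. On its brightest probe set the signal was 19948 in LB14, 3064 in tumour 4 and 237 in LB11. Normal ovaries gave 42.5 in hen 36, 82.3 in LB22 and 452 in LB3. Tumours LB14 and 4 lay above every normal ovary, whereas LB11 lay below the normal ovary of hen LB3. The same arrangement held on a second KRT5 probe set, with 11968, 2087 and 200 in LB14, 4 and LB11 against 302 in LB3. On the third, which has the suffix _s_at, LB14 and tumour 4 gave 1594 and 189, above every normal ovary (highest 48.0, in hen LB22). There LB11 (11.4) and LB3 (20.3) were both below background, so their order is not known.

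The log2 differences of the 3 KRT5 probe sets were 4.17 (SE 1.37), 3.34 (SE 1.17) and 2.51 (SE 1.21), with limma adjusted p of 0.437, 0.475 and 0.644. Their wide errors came with the spread among tumours, which was 84.2-fold between LB14 and LB11 on the brightest. Without tumour LB11 the difference of the second was 4.85 (adjusted p = 0.0426), past the threshold, and those of the brightest and the third were 5.82 (0.0805) and 3.98 (0.171). Without tumour LB14 the differences of the brightest, the second and the third fell to 2.67, 1.96 and 1.04 (adjusted p 0.534 to 0.768).

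KRT6A is in mammals a keratin of wounded and fast-renewing epidermis. Its signal was 3703 in LB14, 159 in tumour 4 and 22.2 in LB11, against 9.02, 11.6 and 4.24 in hens 36, LB3 and LB22. The groups did not overlap, but LB11 and all 3 normal ovaries were at or below their background limits. The mean log2 signal of the 3 tumours was 5.89-fold over the mean log2 of the normal background limits. That ratio is no lower bound, because LB11 entered it with a signal below its own background limit of 44.6. The log2 difference was 3.60 (SE 1.33, limma adjusted p = 0.5). Both values rested on tumour LB14, without which the same ratio of means was 1.49-fold and the log2 difference 1.76. Because the normal signals were all below background, the size of the log2 difference also depended on the pseudocount (4.78 with 1 and 2.53 with 64). The spread among tumours was 167-fold. KRT75, the next gene in the cluster and in chicken a keratin of the feather shaft, was 105 to 163 in tumours and 91.1 to 141 in normal ovaries, which overlap (log2 difference 0.24, SE 0.31).

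KRT7, which marks simple ductal epithelia and many human ovarian carcinomas, was bright in all 6 ovaries. Its only probe set has the suffix _s_at, so its probes can also match related transcripts. The signal reached 5846 in LB14, 4932 in tumour 4 and 3850 in LB11, against 2730 in hen 36, 3307 in LB3 and 3914 in LB22. LB11 thus lay just below the highest normal ovary. The log2 difference of 0.55 (SE 0.21, 95% interval 0.08 to 1.02, adjusted p = 0.518) was the median of the 23 keratin probe sets. KRT80, a type II keratin found in many differentiating epithelia of mammals, had a pair of probe sets, both with positive differences that did not pass the test. On the brighter one tumours (110 to 135) overlapped with normal ovaries (67.4 to 125) and the difference was 0.41 (SE 0.31). On the dimmer one, tumour 4 gave 153 and LB14 gave 55.7, while LB11 and the normal ovaries (3.69 to 19.8) were at or below background. By the ratio used for KRT6A the tumours' mean was 1.28-fold over the normal background limits there (limma adjusted p = 0.564). It is no lower bound either, as LB11 again entered below background. Without tumour 4 the tumours' mean was below the normal background limits.

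The remaining type II keratins had low signals. KRT75L2 gave 143 in LB14, 90.6 in tumour 4 and 90.3 in LB11, just above the 89.5 of normal hen 36, the highest of its group (log2 difference 0.43, SE 0.33). KRT71 is a keratin of the hair root sheath in mammals. Its only probe set with no other symbol was above background in tumour LB11 alone (47.3, others 3.77 to 19.6). That probe set has the suffix _x_at, so its probes can also match other transcripts. A probe set that KRT71 shares with KRT75L1 and KRT75L2, which is no member, was above background on all 6 arrays (123 to 228 in tumours, 45.3 to 178 in normal ovaries). KRT3, a corneal keratin in humans, was at or below background on all arrays (1.73 to 8.07). In all, 17 of the 23 keratin probe sets had a mean signal at or above the 40th percentile of all probe sets and 6 did not.

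The tumours differed among themselves on many keratins. The median SD of the log2 signal over the 3 tumours was 0.79 on the keratin probe sets and 0.38 on all probe sets; over the 3 normal ovaries it was 0.30 and 0.27. Tumour LB11 was the lowest of the tumours on 14 of 23 keratin probe sets, where it was lowest on 28.1% of all probe sets. Tumour LB14 was the highest on 14 of 23, against 38.8% of all. On 9 of 23 keratin probe sets, tumours 4 and LB14 were above every normal ovary and LB11 was not, an arrangement found on 5.36% of all probe sets and chosen for counting after the values were seen. Probe sets of the same gene share their source, so these counts are not of independent genes. The tumours also differed on cell type markers, LB11 and tumour 4 in different ways. The summed signal of 6 smooth muscle markers was 41629 in LB11, 16718 in LB14 and 8910 in tumour 4, against 11169 to 19222 in normal ovaries. Most of the LB11 sum came from ACTG2, TAGLN and MYLK. That of the 9 epithelial markers was 22975 in LB11, 59502 in LB14 and 38020 in tumour 4. Fibroblast markers summed to 27771 in tumour 4, 88292 in LB14 and 87714 in LB11, against 71242 to 99830 in normal ovaries. Leukocyte markers summed to 12679, 28771 and 33670 in the same tumours, against 21234 to 28786. The part of these markers' cells in the keratin pattern was not tested.

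**Figure D3:**
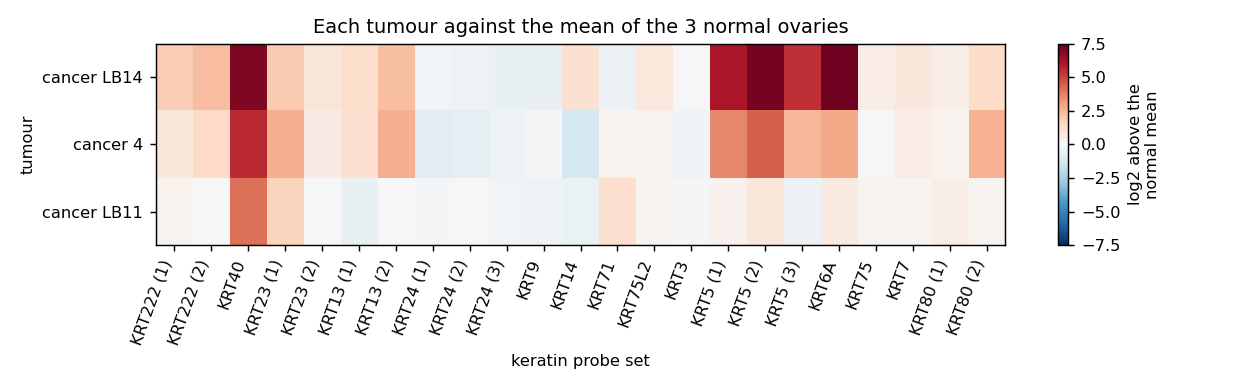
Log2 signal of each tumour minus the mean of the 3 normal ovaries, for each keratin probe set, as colour. KRT40 is raised in every tumour (7.00 in LB14, 5.59 in 4 and 4.11 in LB11), whereas KRT5 and KRT6A are raised in LB14 and 4. In LB11 the KRT5 probe sets lie between −0.41 and 0.86, and KRT6A is below background.

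Set against its own normal mean, KRT40 was higher by 7.00 (log2) in LB14, 5.59 in tumour 4 and 4.11 in LB11. The brightest KRT5 probe set was higher by 7.17, 4.47 and 0.86, and KRT6A by 7.27, 2.87 and 0.66, in the same tumours. KRT6A was below background in LB11 and in all normal ovaries, so the sizes of its differences depended on the pseudocount. CDH1, the adhesion protein of epithelial junctions, had 16090 in LB14, 10765 in tumour 4 and 3106 in LB11, the same order as KRT40, against 122 to 209 in normal ovaries. CLDN3, a tight junction protein, gave 4224, 3726 and 490 in that order. OVAL, the gene of the egg-white protein ovalbumin, had another order: 33628 in LB11, 33551 in LB14 and 3251 in tumour 4. EPCAM, an adhesion protein of simple epithelia, was bright in both groups and overlapped (14221 to 25916 in tumours, 12487 to 14301 in normal ovaries; log2 difference 0.46, SE 0.23, adjusted p = 0.656) on its brightest probe set; its 3 probe sets differed by 0.46 to 2.44, none past the threshold.

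**Figure D4:**
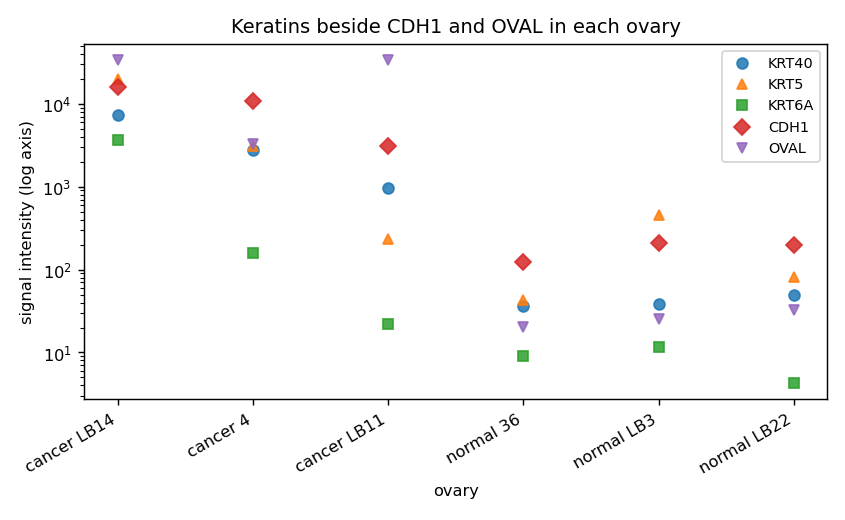
Signal intensity (log axis) of KRT40, KRT5, KRT6A, CDH1 and OVAL, each on its brightest probe set, in each of the 6 ovaries. KRT40 and CDH1 are high in all 3 tumours, KRT5 is at 237 in tumour LB11 and 452 in normal hen LB3, and OVAL is as high in LB11 as in LB14.

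Ratios between keratins within an array were compared for 2 pairs, and neither passed a test. The log2 ratio of KRT40 to KRT7 was −0.83 ± 1.15 in tumours and −5.85 ± 0.12 in normal ovaries (SD, n = 3 each). The difference was 5.02 with no overlap, and it depended on the pseudocount (5.45 with 1 and 4.18 with 64). The exact two-sided permutation test gave p = 0.1, the smallest that 3 against 3 allows. The ratio of KRT5 to KRT14, the pair of the basal layer, was chosen after the values were seen. It was 1.95 in tumour 4, 2.17 in LB14 and −2.46 in LB11, against −1.57 in LB3, −4.54 in LB22 and −5.44 in hen 36. LB11 lay among the normal ovaries, and the difference of 4.40 had an exact two-sided permutation p of 0.2 (0.2 for both ratios after Benjamini-Hochberg adjustment over 2). A ratio between probe sets does not show which transcript was more abundant.

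Genes whose log2 signals over the 6 arrays were most like those of a keratin were ranked by Pearson correlation. The candidates were 18193 probe sets with 1 symbol and a mean signal over the 6 arrays at or above the 40th percentile. The genes with the highest correlation are named here. For KRT40 they were KCNN2, a potassium channel (r = 0.998), CA8, a protein related to carbonic anhydrases (r = 0.997), and LURAP1L (r = 0.997). KCNN2 itself was 1494, 869 and 627 in LB14, 4 and LB11 against 110 to 121 in normal ovaries. For KRT5 they were VIPAS39 (r = 0.995), ARID4A (0.991) and the inflammatory transcription factor gene NFKB1 (0.989), and for KRT6A the Wnt pathway inhibitor AXIN2 (0.998), EBAG9 (0.997) and RNH1 (0.994). For KRT23 they were PRKDC, CHRM5 and LMO7 (0.993, 0.989 and 0.988). A high correlation does not give the size of a difference. The 3 genes named for KRT40 differed by 2.88, 2.94 and 2.24 (log2), past the limma threshold. Those for KRT5 differed by 0.45, 0.19 and 0.98, those for KRT6A by 0.76, 0.38 and 0.21, and those for KRT23 by 0.29, 1.91 and 0.70. None of these passed it. With only 6 arrays such values are common: 150 probe sets had a correlation over 0.95 with KRT40 and 105 with KRT5, and arrays of 2 groups share the group difference.

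Keratin filaments end on desmosomes and hemidesmosomes, the junctions that tie epithelial cells to each other and to the matrix below. Of all probe sets on the array, 52.1% had a positive difference, and 4.41% were higher and 3.90% lower at an unadjusted p under 0.05; the lists below are to be read beside these shares, and no difference between lists was tested. Of 24 listed anchor genes 19 were measured; 15 had positive differences, 0 rose and 0 fell (3 higher and 1 lower at an unadjusted limma p under 0.05), and the median was 0.40. DSG2, a cadherin of desmosomes, was 465 in LB14, 283 in tumour 4 and 45.3 in LB11, against 25.6 to 51.7 in normal ovaries. As with KRT5, LB11 lay among the normal ovaries. DSG2 differed by 1.85 (SE 0.68, limma adjusted p = 0.496), and by 2.73 without tumour LB11 (adjusted p = 0.0426), against 1.24 without LB14. Leaving out LB11 raised the calls over the whole array from 38 to 139 higher, and leaving out any other hen gave DSG2 an adjusted p of 0.535 to 0.937. PERP, a desmosome-associated membrane protein measured under the symbol PERPA, differed by 1.63 (SE 0.75, limma adjusted p = 0.619). DSC1, a desmosomal cadherin, differed by 1.38 (SE 0.78, limma adjusted p = 0.712). Both had LB14 far above the rest. PERP was below background in LB11 and in hens 36 and LB22, and DSC1 in LB11 and hen 36. ITGB4, the integrin subunit of hemidesmosomes, was 1021 to 3588 in tumours and 597 to 708 in normal ovaries (log2 difference 1.31, SE 0.41, adjusted p = 0.4) on its brightest probe set, and its 4 probe sets differed by −0.32 to 1.31. COL17A1, a collagen of hemidesmosomes, was 438 to 1422 against 245 to 417 (1.21, SE 0.40, adjusted p = 0.438). DSP, desmoplakin, which binds keratin to desmosomes, overlapped between the groups (0.38, SE 0.36).

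Of 17 other intermediate filament genes listed, 14 were measured; 4 had positive differences and 10 negative, 0 rose and 0 fell (0 and 1 at an unadjusted limma p under 0.05), and the median was −0.16. VIM, vimentin of mesenchymal cells, was 8682 to 10612 in tumours and 10274 to 10894 in normal ovaries (log2 difference −0.15, SE 0.15, adjusted p = 0.869). NES, nestin, differed by −0.81 (SE 0.31, adjusted p = 0.526) and DES, desmin of muscle, by −0.44 (SE 0.65).

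**Figure D5:**
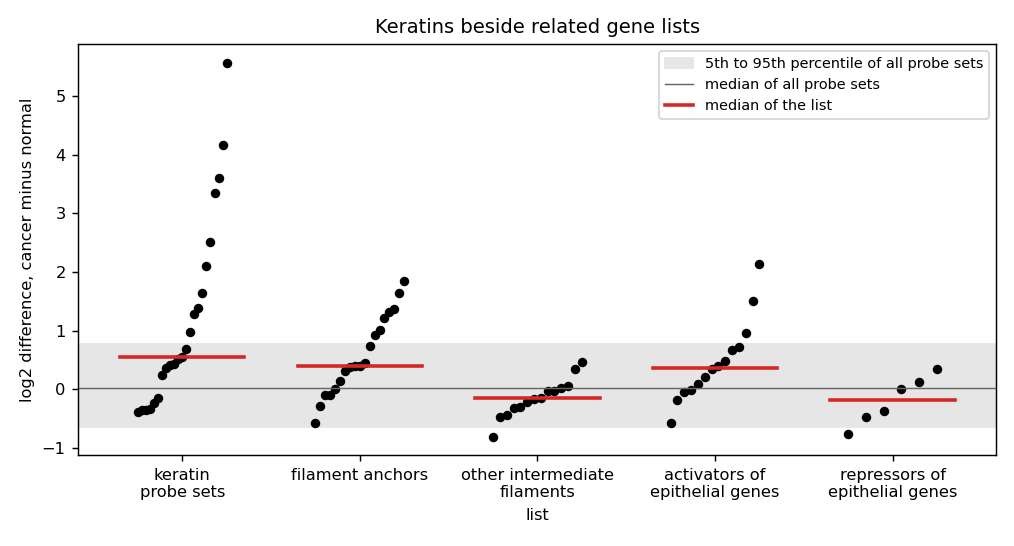
Log2 differences (cancer minus normal) of the 23 keratin probe sets and, with 1 probe set per gene, of the genes in 4 related lists; red bars are list medians, and the grey band spans the 5th to 95th percentile of all probe sets, −0.65 to 0.77. Keratins reach 5.57, filament anchors reach 1.85 and activators of epithelial genes reach 2.13.

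Of 18 listed regulators that activate epithelial genes 14 were measured; 10 had positive differences, 0 rose and 0 fell (3 and 1 at an unadjusted limma p under 0.05), and the median was 0.36. ESRP2, a splicing regulator of epithelial cells, was 3308 in LB14, 1882 in tumour 4 and 968 in LB11, against 385 to 426 in normal ovaries. It differed by 2.13 (SE 0.38, limma adjusted p = 0.121), and by 2.58 without tumour LB11 (adjusted p = 0.00903; 0.145 to 0.553 without any other hen). Its other probe set differed by 0.27. ELF3, an epithelial transcription factor, was 551 to 1553 against 281 to 419 (1.50, SE 0.35, adjusted p = 0.275). TP63, the master regulator of stratified epithelia that drives KRT5 and KRT14 in mammals, was 407 to 595 in tumours and 621 to 864 in normal ovaries (−0.58, SE 0.22, adjusted p = 0.525). TP63 lay below every normal ovary in tumours 4 (407) and LB14 (595), in which KRT5 was high, and also in LB11 (461). These signals are from its brightest probe set, and its 2 probe sets differed by −0.58 and −0.15. The part of TP63 in the KRT5 levels was not tested. Of 6 repressors of epithelial genes 6 were measured, with 3 positive and 3 negative differences, 0 calls (0 at an unadjusted p under 0.05) and a median of −0.18.

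Of 12 listed genes of the cornified envelope and barrier 2 were measured and 0 passed the test (1 was higher at an unadjusted limma p under 0.05). SPINK5 was listed for its role in mammals, as a protease inhibitor of skin, which need not hold for the chicken gene. Its signal was 757 in tumour 4, 448 in LB14 and 207 in LB11, against 63.1 to 69.0 in normal ovaries, without overlap. The log2 difference was 2.40 (SE 0.42, limma adjusted p = 0.121). It was 2.87 without LB11 (limma adjusted p = 0.0156), and the adjusted p was 0.176 to 0.551 without any other hen. Of 4 listed corneous beta proteins, which make feathers and scales and are unrelated to keratins despite the name beta-keratin, BKJ was measured and had a signal of 41.7 to 69.7 in tumours and 82.8 to 124 in normal ovaries (−0.68, SE 0.33, adjusted p = 0.646) on its brightest probe set, while its highest difference among 3 was 0.44. Of 6 measured markers of the ovarian surface and mesothelium, another keratin-bearing epithelium, 3 had positive and 3 negative differences, with a summed signal of 2466 to 3466 in tumours and 2113 to 2252 in normal ovaries; the defining marker MSLN lay between 11.6 and 73.8 in all ovaries. UPK1B, a uroplakin on the same list, was 493 to 1970 in tumours and 245 to 424 in normal ovaries, without overlap (1.54, SE 0.45, limma adjusted p = 0.372). Their part in the keratin levels was not tested.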

How the data were processed

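Signal intensities were deposited by the authors as a linear value per probe set, made with GCOS per the submitters' processing notes; the sources used here do not give its settings. The values show a mean of 500.1 on each array after trimming 2% at each end, so no further normalization was applied. 96 control probe sets were left out. log2(signal + 16) of 38439 probe sets, without a signal filter, was compared between groups with limma 3.58.1 in R 4.3.3 (eBayes with a trend, two-sided). 3 arrays per group limit the precision. On simulated arrays for this comparison (38439 probe sets), limma recovered 7.46% of log2 changes of 1, 47.2% of 2 and 90.0% of 4. The simulation gave all tumours the same change, and both groups the same spread on a probe set. On keratins the real tumours were more spread than the normal ovaries (median SD 0.79 and 0.30). These rates therefore need not hold for keratins that differ among tumours. Gene symbols came from the platform's annotation; 14 of 15 keratin gene IDs stood in the RefSeq table (GRCg7b), used for names and order. Lists used 1 probe set per gene, the brightest. Members, lists and tests were chosen with earlier results of these data known. Up to 6 members of a list were named, and the choice did not strictly follow size. DSP, VIM, TP63 and FOXL2 were named, while larger differences such as those of DSG4 (1.01), EHF (0.96) and INHBB (−3.06) were not. Of 10 planned keratin ratios 1 could be computed.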

Additional observations from a re-analysis of the deposited data

How the results depend on the processing

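KRT40 kept its direction in 17 alternatives, with differences from 4.72 to 6.29 and limma adjusted p from 0.00109 to 0.317, and lost its call in 5. The count of 1 higher keratin probe set was 2 with robust eBayes, 2 at the adjusted p limit of 0.1, 0 among the LB hens only and 0 to 3 when 1 hen was left out (0 without tumour 4, normal 36, LB3 or LB22; 3 without LB11); the count of lower ones stayed at 0. The 38 higher probe sets of the whole array were 23 without a trend, 62 at the adjusted p limit of 0.1, 11 among the LB hens only and 20 to 139 when 1 hen was left out (139 without LB11). The 6 lower were 10 with a pseudocount of 1, 3 with 64, 10 with the filter at the 40th percentile, 2 without a trend, 10 with robust eBayes, 14 at the adjusted p limit of 0.1, 0 among the LB hens only and 0 to 14 when 1 hen was left out. Of 23 keratin probe sets 21 never changed sign; KRT14 became 0.48 among the LB hens only and ran from −0.93 to 0.31 when 1 hen was left out (0.31 without tumour 4), and KRT71 ran from −0.093 (without LB11) to 0.75. The causes were not tested. The ratios of means without 1 tumour and the values of list genes without 1 hen were chosen after seeing the data. With the background limit at the highest control, KRT40 was at least 37.0-fold higher. The KRT6A ratio was then 3.24-fold, again no lower bound because LB11 was below background. No paired analysis was possible because the groups share no replicate numbers. Dim probe sets such as KRT9 and KRT3, at or below background, give no order.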
